A study of Mus musculus with 12 samples.

Results

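Calcrl, Ramp1, Ramp2 and Ramp3 encode the parts from which cells build the receptors of calcitonin gene-related peptide (CGRP) and of adrenomedullin. They are 4 of the 26202 genes of the deposited RNA-seq table, taken by name and selected on their known CPM values across the groups of this series, so their levels and differences are a description with no p-value, and where a member lies past the threshold of the all-gene fit this is stated without reading anything from it. CD4+ T cells were studied in 4 groups of 3 libraries, TH2 Itgav KO, TH2 control, TH1 Itgav KO and TH1 control. Naïve CD4+ T cells of the spleen came from Itgav fl/fl Cd4 CreERT2 mice, in which a Cre recombinase that tamoxifen switches on removes Itgav in CD4-expressing cells, or from Cd4 CreERT2 mice that carry the same recombinase and no floxed allele. Itgav encodes the integrin αv chain, which pairs with β3 on TH2 cells, and the study asked what αv does for TH1 and TH2 polarisation. The cells grew for 5 days on anti-CD3 with anti-CD28 and IL-2, with IL-4 and anti-IFNγ for TH2 cells or IL-12 and anti-IL-4 for TH1 cells, and live CD4+ cells were then sorted with no gate on αv. For the sequenced cultures, the sources used here give neither the drug treatment, nor the age of the mice, nor the mouse behind each library. The p-values therefore cover only how far these libraries differ among themselves, part of which may be technical.

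Calcrl is a G protein-coupled receptor that does not bind its peptides alone. It reaches the cell surface with a single-pass partner, a RAMP, and the partner sets the ligand. With Ramp1 it forms the CGRP receptor, and with Ramp2 or Ramp3 it forms adrenomedullin receptors. Both kinds signal mainly through Gs, adenylyl cyclase and cAMP. CGRP is released by sensory nerves, including those of the airway, and acts on several immune cells, among them type-2 innate lymphoid cells and T cells, while adrenomedullin with Calcrl and Ramp2 is best known from the vascular endothelium.

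Calcrl lies on the minus strand of chromosome 2 (84330626 to 84425411, GRCm38), Ramp1 on the plus strand of chromosome 1 (91179822 to 91225196), and Ramp2 (101246028 to 101259546) and Ramp3 (6658521 to 6677475) on the plus strand of chromosome 11, so no member neighbours another. The promoters of Calcrl and Ramp1 are shown because these were the members that differed most between KO and control libraries. They are RefSeq sequences on GRCm38.p6, found for 3 of the 4 members, and are cut where the first annotated exon begins. The Calcrl stretch is chr2:84425412-84425516 on the minus strand and the Ramp1 stretch is chr1:91179572-91179821 on the plus strand. Capitals mark the letters GATA or their reverse complement TATC, the core that GATA factors such as Gata3 bind.
Calcrl: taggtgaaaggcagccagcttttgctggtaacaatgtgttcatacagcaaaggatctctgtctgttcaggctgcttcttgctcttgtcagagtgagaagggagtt
Ramp1: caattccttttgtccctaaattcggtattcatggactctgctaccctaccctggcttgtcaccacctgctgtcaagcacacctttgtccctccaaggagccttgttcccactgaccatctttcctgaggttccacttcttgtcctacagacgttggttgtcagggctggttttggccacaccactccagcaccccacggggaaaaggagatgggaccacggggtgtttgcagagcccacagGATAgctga
Over the 250 bases before the RefSeq start, searched on both strands, Calcrl held 0 such cores, Ramp1 held 1 and Ramp3 held 1, and 53.6% of 32851 RefSeq promoters held at least 1. For Calcrl only the 105 bases shown lie before the first annotated exon. The rest of its 250 bases lie within the annotated gene. The letters TGACG or CGTCA, part of the element bound by cAMP-responsive CREB factors, were in none of the 3 and in 17.8% of all promoters. No promoter of a member held both motifs, so none overlapped. A match describes the letters only.

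The libraries held 6344186 to 13312234 reads in genes, and the values are CPM, the reads of a gene scaled to the same total in every library. In a library of this size 3 reads, taken here as the floor of detection, equal 0.225 to 0.473 CPM. Itgav itself stood at 55.2, 43.5 and 60.5 CPM in TH2 Itgav KO libraries, against 250, 195 and 313 CPM in TH2 control libraries, and at 42.8, 21.3 and 28.1 CPM in TH1 Itgav KO libraries, against 227, 228 and 154 CPM in TH1 control libraries. All KO libraries were thus below all controls, with some Itgav reads left in each, and undeleted cells cannot be told apart here from exons outside the deletion. Gata3, the TH2 master regulator, ranged over 660 to 831 CPM in TH2 libraries and 9.31 to 28.5 CPM in TH1 libraries, while Tbx21, its TH1 counterpart, reached 11.7 CPM at most in TH2 libraries and was at least 158 CPM in TH1 libraries. The 12 libraries therefore matched their labels. Over all genes tested, 6 libraries correlated more closely with a library of another group than with the least similar library of their own: the 3 TH2 control libraries, TH2 Itgav KO 1 and 2, and TH1 Itgav KO 1. The widest gap was that of TH2 control 1, at r of 0.911 with a library of another group and 0.878 with TH2 control 2. Without TH2 control 1 or 2 or any other single library the Calcrl difference in TH2 cells, given next, was -1.63 to -1.39.

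Calcrl was a TH2 transcript in these cultures and was lower in TH2 Itgav KO than in TH2 control libraries. It was listed at 101, 137 and 141 CPM in TH2 Itgav KO libraries, against 366, 358 and 370 CPM in TH2 control libraries. Every KO library was below every control, and 18.7% of all 9121 genes tested likewise had groups without overlap. The KO mean of 126 ± 22.02 CPM was 34.6% of the control mean of 365 ± 5.79 CPM (SD, n = 3 each). On the log2(CPM + 1) scale, on which all log2 differences here are given, the difference was -1.54 ± 0.27 (SE). In bulk RNA a lower level can mean fewer cells with the transcript or less of it in each cell, and these cannot be told apart.

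In TH1 cells Calcrl was low in both Itgav KO and control libraries. It was listed at 8.10, 23.3 and 14.9 CPM in TH1 Itgav KO libraries, against 19.5, 21.5 and 23.1 CPM in TH1 control libraries. The groups overlapped, TH1 Itgav KO 2 being above all controls and the other KO libraries below them, and the difference was -0.55 ± 0.27 (SE). The lowest of these values, in TH1 Itgav KO 1, still rested on 89 reads.

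Between the subsets, Calcrl was 17.1-fold higher in TH2 than in TH1 control cells (log2 difference 4.04 ± 0.27) and 8.18-fold higher in TH2 than in TH1 Itgav KO cells (3.05 ± 0.27). The lowest TH2 library, a KO library at 101 CPM, was still above the highest TH1 library at 23.3 CPM. Each TH2 Itgav KO culture, with some Itgav reads left, thus held more Calcrl than any TH1 culture. Of all genes tested, 33.7% had no overlap between the control groups and 38.7% between the KO groups. The KO difference in TH2 minus that in TH1 was -0.99 ± 0.39 (SE) for Calcrl, which did not pass the threshold, an adjusted p under 0.05 over all genes tested.

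**Figure D1:**
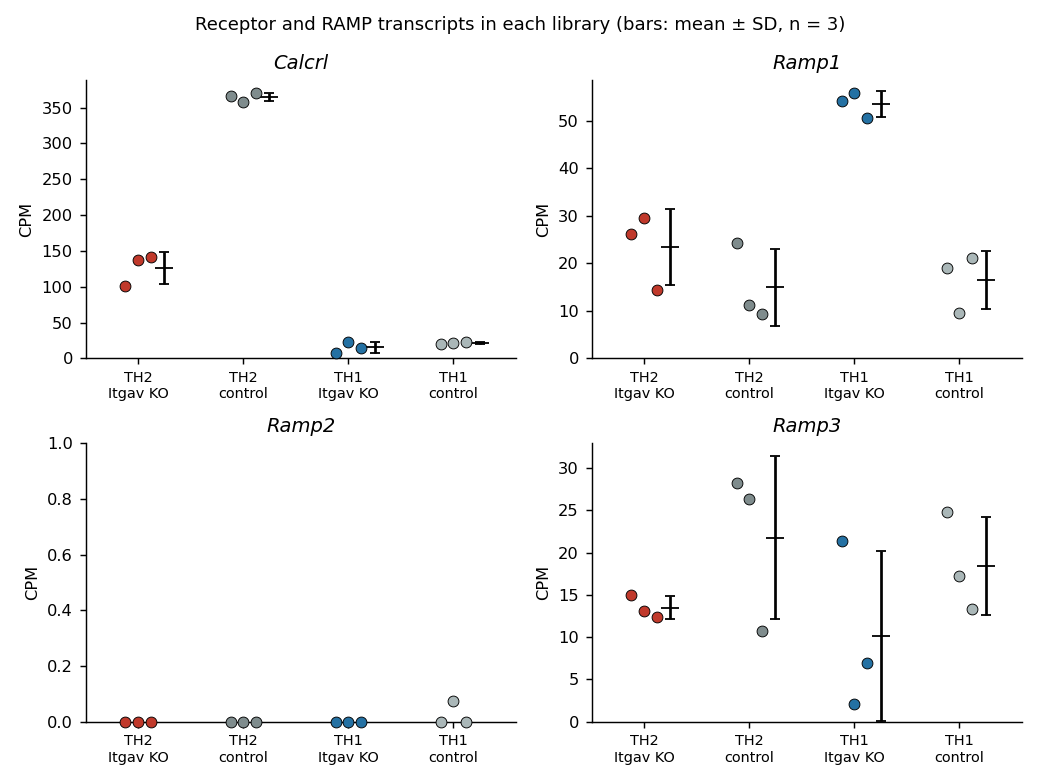
CPM of Calcrl, Ramp1, Ramp2 and Ramp3 (vertical axes, a separate linear scale from 0 for each gene) in the 3 libraries of each group, as points, with bars for the mean ± SD where the gene was detected. Calcrl was at 101 to 141 CPM in TH2 Itgav KO libraries, 358 to 370 CPM in TH2 control libraries and under 24 CPM in all TH1 libraries, Ramp1 stood highest in TH1 Itgav KO libraries, and Ramp2 was at 0 in 11 of 12 libraries.

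Ramp1, the partner that makes Calcrl a CGRP receptor, showed another pattern and was highest in TH1 Itgav KO libraries. It was listed at 54.2, 55.8 and 50.6 CPM in TH1 Itgav KO libraries, against 19.0, 9.54 and 21.1 CPM in TH1 control libraries. The groups did not overlap, as for 20.8% of all genes tested. The KO mean of 53.5 ± 2.66 CPM was 3.24-fold the control mean of 16.5 ± 6.14 CPM (SD, n = 3 each), a log2 difference of 1.71 ± 0.40 (SE). It lay past the threshold with all libraries and not in 11 of 19 alternative settings, among them leaving out any 1 of the 6 TH1 libraries or TH2 Itgav KO 1, with a log2 difference of 1.38 to 1.91 as each library was left out.

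In TH2 cells Ramp1 was listed at 26.2, 29.6 and 14.3 CPM in Itgav KO libraries, against 24.3, 11.2 and 9.42 CPM in control libraries. The groups overlapped, since TH2 control 1 was close to the higher KO libraries, and the difference was 0.66 ± 0.40 (SE). Control cells of the subsets were alike in level, with TH2 control cells at a mean of 15.0 CPM and TH1 control cells at 16.5 CPM, a log2 difference of -0.18 ± 0.40 (SE). Among Itgav KO libraries, those of TH2 cells were all below those of TH1 cells, at a log2 difference of -1.22 ± 0.40 (SE). This difference missed the threshold in 5 of 19 alternatives, among them leaving out TH2 Itgav KO 3 (-0.92) or any TH1 Itgav KO library. The KO difference in TH2 minus that in TH1 was -1.04 ± 0.56 (SE) for Ramp1 and did not pass the threshold.

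Ramp2, the partner for the adrenomedullin receptor of endothelium, had 0 reads in 11 libraries and 1 read, 0.0751 CPM, in TH1 control 2. A count of 0 allows up to 0.225 to 0.473 CPM, depending on the library, so Ramp2 was not detectable at this depth in any group. No fold change is given for it. In the annotation Ramp2 overlaps Vps25 on the same strand, and how the authors' counting treats reads in such overlaps is not given in the sources used here.

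Ramp3, which also makes an adrenomedullin receptor with Calcrl, was low in all groups and varied between libraries. It was listed at 15.0, 13.1 and 12.4 CPM in TH2 Itgav KO libraries, against 28.2, 26.3 and 10.7 CPM in TH2 control libraries, where 1 control library lay below all KO libraries. In TH1 cells it was listed at 21.4, 2.13 and 6.88 CPM in Itgav KO libraries, against 24.7, 17.2 and 13.3 CPM in control libraries. These groups overlapped too, through TH1 Itgav KO 1, and the lowest value rested on 21 reads.

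The Ramp3 differences were -0.55 ± 0.55 (SE) in TH2 cells and -1.20 ± 0.55 in TH1 cells for Itgav KO against control, 0.16 ± 0.55 for TH2 against TH1 control cells and 0.82 ± 0.55 for TH2 against TH1 Itgav KO cells. None passed the threshold with all 12 libraries, and only that between the KO groups passed it without 1 library, TH1 Itgav KO 1, at 1.54. The Ramp3 gene overlaps a pseudogene, Gm11978, on the other strand, and whether reads were counted by strand is not stated, so reads of the pair cannot be told apart.

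Of the 4 members, 3 reached the level for testing, 10 CPM in at least 3 libraries, and Ramp2 did not. With limma over 9121 genes, 1 member passed the threshold for TH2 Itgav KO against control (Calcrl, lower), where 3.59% of all genes did and 1.67% were lower. For TH1 Itgav KO against control 1 member passed (Ramp1, higher), where 0.844% of all genes did and 0.329% were higher. For TH2 against TH1 control cells 1 member passed (Calcrl, higher), where 18.3% of all genes did and 8.58% were higher. For TH2 against TH1 Itgav KO cells 2 members passed (Calcrl higher, Ramp1 lower), where 23.7% of all genes did, 12.2% higher and 11.6% lower. For the KO difference in TH2 minus that in TH1, 0 members passed, and 0.406% of all genes did. Calcrl was on the same side of the threshold in all 5 comparisons under every alternative run. Because the members were chosen with these values known, nothing is read from their counts. The comparisons share libraries, the controls and the KO groups each serving in more than 1 of them, so their differences are not independent.

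**Figure D2:**
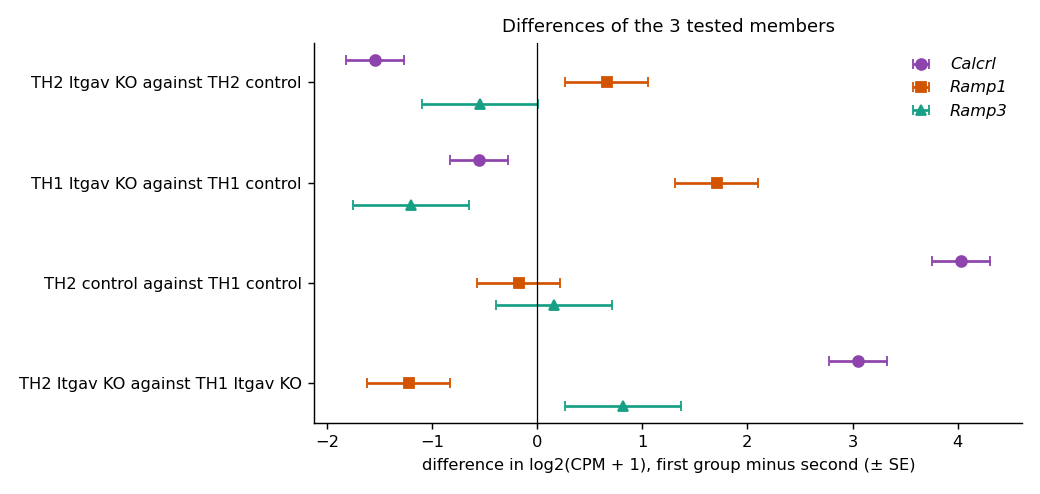
Differences in log2(CPM + 1), first group minus second, with SE bars (horizontal axis), for Calcrl, Ramp1 and Ramp3 in 4 comparisons (vertical axis). Calcrl ran from -1.54 for Itgav KO against control in TH2 cells to 4.04 for TH2 against TH1 control cells, Ramp1 stood at 1.71 for Itgav KO against control in TH1 cells, and the bars of Ramp3 were the widest at 0.55.

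The order of levels thus differed by member. For Calcrl it was TH2 control, TH2 Itgav KO, TH1 control and TH1 Itgav KO from high to low, and only the TH1 groups overlapped. For Ramp1 it was TH1 Itgav KO (53.5 CPM), TH2 Itgav KO (23.4 CPM), TH1 control (16.5 CPM) and TH2 control (15.0 CPM), and only the first stood clear of its neighbour. For Ramp3 it was TH2 control (21.8 CPM), TH1 control (18.4 CPM), TH2 Itgav KO (13.5 CPM) and TH1 Itgav KO (10.1 CPM), and no neighbours were clear of each other.

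Levels of different genes were compared per kilobase of the principal annotated transcript, which is 4.882 kb for Calcrl, 2.325 kb for Ramp1, 1.178 kb for Ramp2 and 1.233 kb for Ramp3. On the CPM per kb scale, Calcrl averaged 25.9 ± 4.51 in TH2 Itgav KO libraries and 74.7 ± 1.19 in TH2 control libraries, and 3.16 ± 1.56 in TH1 Itgav KO libraries and 4.37 ± 0.367 in TH1 control libraries (SD, n = 3 each). Ramp1 averaged 10.1 ± 3.46 and Ramp3 10.9 ± 1.08 CPM per kb in TH2 Itgav KO libraries, against 6.45 ± 3.49 and 17.7 ± 7.79 CPM per kb in TH2 control libraries. TH2 control cells therefore held more receptor than partner transcript, whereas the TH1 cells held more partner than receptor.

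Calcrl over the summed RAMPs, in CPM per kb, was 0.883, 1.20 and 1.78 in TH2 Itgav KO libraries, against 2.25, 2.80 and 5.94 in TH2 control libraries. In TH1 cells the same ratio was 0.0408, 0.185 and 0.112 in Itgav KO libraries, against 0.142, 0.243 and 0.238 in control libraries. Of single genes tested, 18.7% had no overlap between the TH2 groups. For the ratio, all TH2 libraries lay above all TH1 libraries, the TH2 groups did not overlap, and the TH1 groups did. With the union of annotated exons as the length the ratio was higher in all groups, at means of 1.54 in TH2 Itgav KO and 4.27 in TH2 control libraries, and 0.143 in TH1 Itgav KO and 0.244 in TH1 control libraries, and kept that order.

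The mix of partners also differed between libraries. Ramp1 made up 48.2, 54.6 and 38.0% of the summed RAMP transcripts per kb in TH2 Itgav KO libraries, against 31.3, 18.5 and 31.8% in TH2 control libraries. It made up 57.3, 93.3 and 79.6% in TH1 Itgav KO libraries, against 28.9, 22.6 and 45.6% in TH1 control libraries. In both subsets all KO libraries were above all control libraries, Ramp3 making up nearly all of the rest. In TH2 cells, however, neither Ramp1 nor Ramp3 by itself separated the KO from the control libraries. Of single genes tested, 18.7% had no overlap between the TH2 groups and 20.8% between the TH1 groups. The share was not tested.

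**Figure D3:**
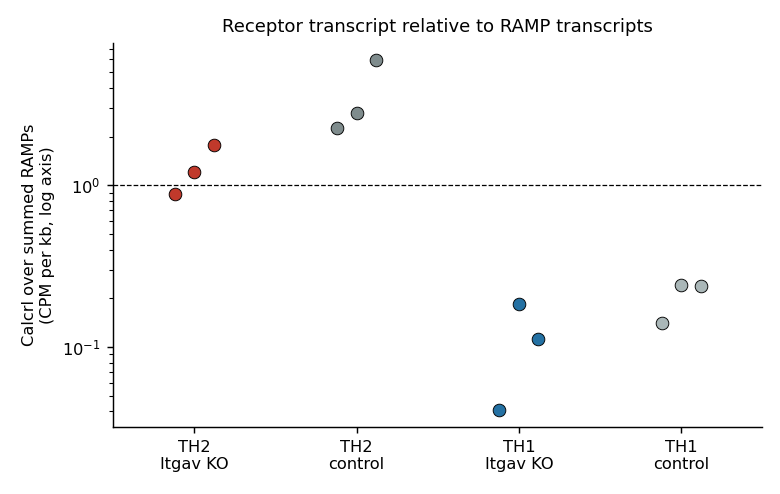
Calcrl over the summed RAMPs in CPM per kb of transcript (vertical log axis) for the 3 libraries of each group, with a dashed line at equal levels. TH2 control libraries sat at 2.25 to 5.94, TH2 Itgav KO libraries at 0.883 to 1.78 around the line, and all TH1 libraries at 0.243 or lower.

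The genes whose log2 values followed each member most closely over the 12 libraries were found among the genes tested. For Calcrl they were Inhba (r = 0.986), a chain of activin A, Dgkk (0.983), a diacylglycerol kinase, Dusp6 (0.981), a phosphatase of ERK, Il5 (0.977), a TH2 cytokine, and Nrgn (0.973), a calmodulin-binding protein. All 5 shared the group order of Calcrl at its upper end. Inhba, for example, averaged 1241 CPM in TH2 Itgav KO and 4274 CPM in TH2 control libraries, and 102 CPM in TH1 Itgav KO and 257 CPM in TH1 control libraries. Il5 averaged 106 CPM in TH2 Itgav KO and 538 CPM in TH2 control libraries, with under 0.11 CPM in both TH1 groups.

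The likeness to Ramp1 and Ramp3 was weaker. The nearest to Ramp1 were Zfp429 (r = 0.880), Eefsec (0.863), Mau2 (0.861), Abhd8 (0.857) and Gnai2 (0.851), the last an inhibitory G protein that lowers cAMP, at 1118 CPM in TH1 Itgav KO and 808 CPM in TH1 control libraries. The nearest to Ramp3 were Phrf1 (0.909), Idua (0.894), Abcd4 (0.875), Ddx56 (0.874) and Amn1 (0.843). The points of each correlation are 12 libraries in 4 groups that share polarisation and genotype. Ranked by Spearman's rho, 0 of the 5 remained for Calcrl, 1 for Ramp1 and 1 for Ramp3.

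Among the peptides that act on these receptors, Calca, whose transcript is spliced to CGRP or to calcitonin, was a TH1 transcript. It was listed at 6.19, 3.78 and 1.10 CPM in TH2 Itgav KO libraries and 10.3, 2.50 and 9.09 CPM in TH2 control libraries. In TH1 cells it was listed at 61.5, 44.5 and 51.4 CPM in Itgav KO libraries and 65.0, 75.9 and 76.2 CPM in control libraries. TH2 cells, which had the higher Calcrl, thus had the lower Calca. The log2 difference of TH2 against TH1 control cells was -3.31 ± 0.47 (SE, limma, adjusted p = 2.01e-05), and it passed the threshold in all 19 alternatives. Gene-level reads do not separate CGRP from calcitonin.

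For Itgav KO against control the Calca difference was -0.82 ± 0.47 in TH2 cells (adjusted p = 0.356) and -0.47 ± 0.47 in TH1 cells (adjusted p = 0.833), neither past the threshold of limma. Every TH1 Itgav KO library was below every TH1 control library, and 20.8% of all genes tested likewise had TH1 groups without overlap. Per kb of transcript, Calca averaged 3.71 ± 2.56 CPM in TH2 Itgav KO and 7.34 ± 4.22 CPM in TH2 control libraries, and 52.8 ± 8.59 CPM in TH1 Itgav KO and 72.8 ± 6.40 CPM in TH1 control libraries (SD, n = 3 each). In TH1 cells it thus stood above each receptor part on the same scale.

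The other ligand genes were below the level for testing. Calcb, the second CGRP gene, was at 0, 0 and 0 CPM in TH2 Itgav KO libraries and 0, 0 and 0.438 CPM in TH2 control libraries, and at 0.819, 6.38 and 3.22 CPM in TH1 Itgav KO libraries and 4.33, 4.43 and 2.29 CPM in TH1 control libraries. Adm, which encodes adrenomedullin, had the opposite lean, at 8.59, 4.10 and 4.96 CPM in TH2 Itgav KO libraries and 5.94, 1.48 and 4.60 CPM in TH2 control libraries, and at most 1.43 CPM in TH1 libraries. Neither Calcb nor Adm differed between KO and control without overlap. Adm2 had reads in 1 library, TH2 Itgav KO 1 (1.02 CPM), and Iapp, the amylin gene, had none in the 12.

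**Figure D4:**
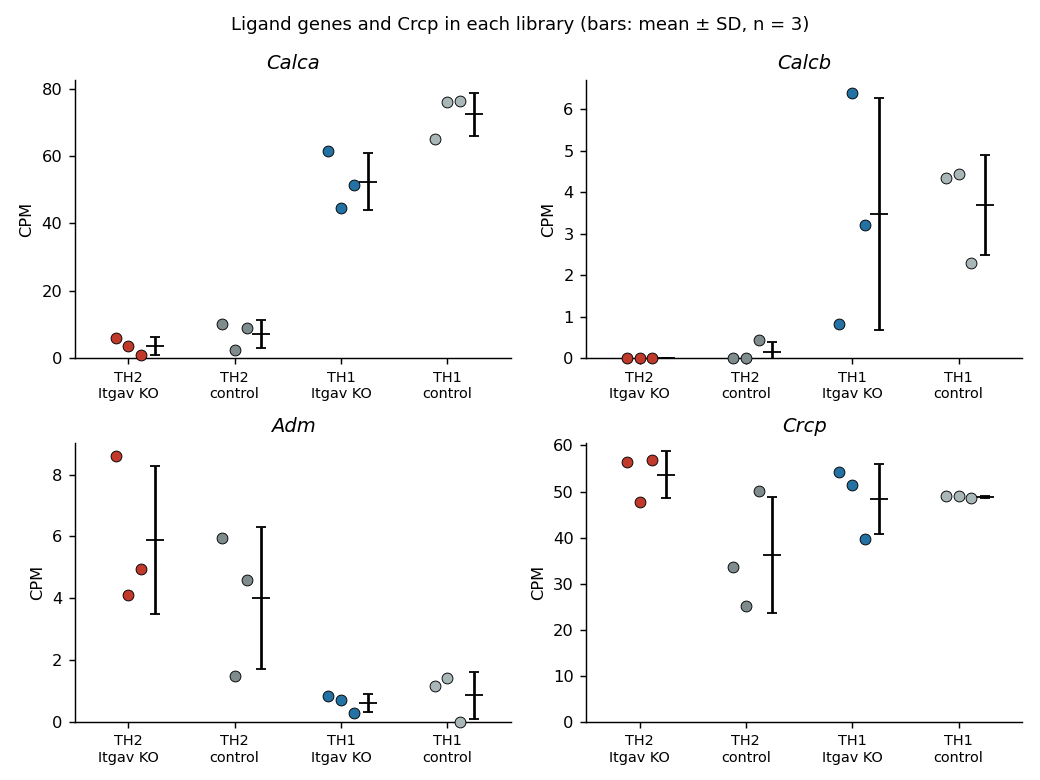
CPM of the ligand genes Calca, Calcb and Adm and of Crcp (vertical axes, a separate linear scale from 0 for each gene) in the 3 libraries of each group, as points, with bars for the mean ± SD. Calca was at 44.5 to 76.2 CPM in TH1 libraries and 1.10 to 10.3 CPM in TH2 libraries, Adm leaned to TH2 libraries at 1.48 to 8.59 CPM, and Crcp was at 25.1 to 56.8 CPM throughout.

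Crcp, an intracellular protein that couples the CGRP receptor to its signal, was at 56.4, 47.8 and 56.8 CPM in TH2 Itgav KO libraries, against 33.5, 25.1 and 50.0 CPM in TH2 control libraries, a log2 difference of 0.60 ± 0.26 (SE, limma, adjusted p = 0.209). In TH1 cells its difference was -0.03 ± 0.26 (adjusted p = 0.992). Calcr, the calcitonin receptor, which also pairs with RAMPs, and Ackr3, a scavenger of adrenomedullin, were at 0 in all libraries. Of 14 other receptors and receptor components for these peptides, or receptors reported to bind a RAMP, 2 reached the level for testing, Crcp and the calcium-sensing receptor Casr, and 0 passed in either KO comparison, where 1 passed an unadjusted p of 0.05 in TH2 cells and 0 in TH1 cells. Of all genes, 3.59% passed in TH2 cells and 0.844% in TH1 cells, and 19.1% and 10.1% had such an unadjusted p. Casr had at most 0.689 CPM in TH2 libraries and 11.1 to 22.6 CPM in TH1 libraries, and TH2 against TH1 control cells differed by -3.81 ± 0.55 (adjusted p = 2.7e-05).

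The Gs and cAMP step below the receptor was read from a list of genes, beside the shares of all genes that passed given above. Gnas, the Gs α chain, was at 2335, 2524 and 2590.2 CPM in TH2 Itgav KO libraries, against 2099, 2134 and 2208 CPM in TH2 control libraries, a log2 difference of 0.21 ± 0.09 (SE, limma, adjusted p = 0.225), and its difference in TH1 cells was -0.02 ± 0.09 (adjusted p = 0.978). Of 19 Gs, adenylyl cyclase, protein kinase A and Epac genes 9 were tested, and 0 passed in either KO comparison, where 3.59% of all genes passed in TH2 cells and 0.844% in TH1 cells. The list's median was 0.21 in TH2 cells, beside 0.04 for all genes, and -0.16 in TH1 cells, beside 0.00. At an unadjusted p under 0.05 there was 1 gene of the list in TH2 cells, beside 19.1% of all genes, and 0 in TH1 cells, beside 10.1%. Between control cells 2 of the 9 passed, beside 18.3% of all genes: Prkacb, a catalytic chain of protein kinase A, was higher in TH2 cells (1.10 ± 0.21, adjusted p = 0.000758), and Adcy6, an adenylyl cyclase, was lower (-1.95 ± 0.38, adjusted p = 0.000851). Prkar1a, a regulatory chain, was at 232 to 310 CPM in every library.

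Phosphodiesterases, which break down cAMP, gave 6 of 16 genes for testing, and 0 passed for Itgav KO against control in TH2 cells (median -0.03, 2 genes at an unadjusted p under 0.05) or TH1 cells (median -0.32, 1 gene). Of all genes, 3.59% passed in TH2 cells and 0.844% in TH1 cells, and 19.1% and 10.1% had such an unadjusted p. The medians of all genes were 0.04 and 0.00. Pde4b, the highest of them, was at 272, 261 and 306 CPM in TH2 Itgav KO libraries, against 253, 130 and 186 CPM in TH2 control libraries, and its difference of 0.61 ± 0.21 (SE, limma, adjusted p = 0.124) passed the threshold only without TH2 control 1 (0.84, adjusted p = 0.0263). Between control cells Pde1a was higher in TH2 cells, at 40.5, 9.65 and 46.2 CPM, against 0, 0.225 and 1.15 CPM in TH1 control libraries (4.32 ± 0.64, adjusted p = 4.02e-05), and Pde3b was lower (-1.39 ± 0.25, adjusted p = 0.000304).

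Of 20 CREB-family genes and genes known to answer to cAMP 19 were tested, and 2 fell in TH2 Itgav KO cells, beside 1.67% of all genes, and 2 in TH1 Itgav KO cells, beside 0.515%, with 0 higher in either. This list, like the others, was chosen with earlier results of these data known. The paper had also reported lower Nr4a1 in TH2 cells lacking αv. Nothing is therefore read from the counts of the list in any comparison. The list's median was -0.16 in TH2 cells, beside 0.04 for all genes, and -0.11 in TH1 cells, beside 0.00. At an unadjusted p under 0.05 by limma there were 6 genes of the list in TH2 cells, beside 19.1% of all genes. Of these, Nr4a1, Nr4a2 and Nr4a3 were lower and Icos (0.74), Rgs2 (1.12) and Crem (0.40) higher. In TH1 cells there were also 6, beside 10.1% of all genes, and all were lower: Nr4a1, Nr4a2, Nr4a3, Rgs2, Per1 and Crem. The members that passed the threshold are nuclear receptors of the Nr4a group, which also answer quickly to T cell receptor signals, and Rgs2, which shortens G protein signals. Nr4a3 was at 9.61, 2.68 and 5.79 CPM in TH2 Itgav KO libraries, against 22.7, 42.2 and 33.8 CPM in TH2 control libraries (-2.36 ± 0.32, limma, adjusted p = 0.000169), and Nr4a1 fell by 1.46 ± 0.24 on the log2 scale (adjusted p = 0.00119). In TH1 Itgav KO libraries Nr4a3 (96.2, 112 and 98.9 CPM, against 214, 269 and 218 CPM in control libraries, adjusted p = 0.0923) and Nr4a1 (89.4, 155 and 92.7 CPM, against 182, 222 and 207 CPM, adjusted p = 0.0859) also lay below all controls without passing. Of all genes tested, 20.8% had TH1 groups without overlap. The pair that passed in TH1 cells was Nr4a2, at 67.7, 42.1 and 35.1 CPM in Itgav KO libraries, against 201, 171 and 229 CPM in control libraries (-2.07 ± 0.43, adjusted p = 0.0194), and Rgs2, at 119, 183 and 137 CPM against 535, 543 and 450 CPM (-1.81 ± 0.36, adjusted p = 0.0143). These TH1 calls were lost in 7 of 19 alternatives for Nr4a2, among them leaving out any TH1 control library, TH1 Itgav KO 2 or TH1 Itgav KO 3 (adjusted p of 0.0717 to 0.133), and in 6 for Rgs2, among them leaving out TH1 control 1 or 2 or TH1 Itgav KO 1 or 3 (0.0746 to 0.088).

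Between control cells 9 of these 19 genes passed, 3 higher and 6 lower in TH2 cells, beside 18.3% of all genes, 8.58% higher and 9.75% lower, with a median of 0.09, beside -0.01 for all genes. Areg, which encodes the growth factor amphiregulin, was at 58.0, 152 and 99.2 CPM in TH2 control libraries, against 2.68, 0.3005 and 0.0881 CPM in TH1 control libraries (5.80 ± 0.65, limma, adjusted p = 8.4e-07). Rgs2 (-4.09 ± 0.36, adjusted p = 2.95e-08), Nr4a3 (-2.83 ± 0.32, adjusted p = 9.62e-07) and Nr4a2 (-2.42 ± 0.43, adjusted p = 0.000308) were lower in TH2 cells. The other members that passed, named after their values were seen, were Dusp10 and Il10, both higher in TH2 cells, and Crem, Nr4a1 and Icos, all lower.

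Arrestins, receptor kinases and the factors that recycle these receptors or degrade their peptides made a list of 14 genes. Of these, 11 had values here and 8 were tested. For Itgav KO against control 0 passed in TH2 cells (median 0.06, 2 genes at an unadjusted p under 0.05) or TH1 cells (median 0.48, 3 genes). Of all genes, 3.59% passed in TH2 cells and 0.844% in TH1 cells. Grk2, a kinase that phosphorylates active receptors, was at 174 to 260 CPM in every library. These unadjusted counts stand beside 19.1% of all genes in TH2 cells and 10.1% in TH1 cells, and the medians beside 0.04 and 0.00. Between control cells 4 passed, beside 18.3% of all genes. Nedd4l, a ubiquitin ligase (1.59 ± 0.41, limma, adjusted p = 0.00797, and 0.0649 without TH1 control 1), Nsf, which RAMP3-bound receptors use for recycling in human cells (1.42 ± 0.24, adjusted p = 0.000149), and Arrb1, an arrestin (1.40 ± 0.34, adjusted p = 0.00485), were higher in TH2 cells. Slc9a3r1, the scaffold NHERF1, was lower (-0.79 ± 0.24, adjusted p = 0.0242), a call lost in 4 of 19 alternatives, without TH2 control 2 or any 1 of the TH1 control libraries (adjusted p of 0.0563 to 0.0901).

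Of 19 other receptors for neuropeptides, neurotransmitters, prostaglandin E2 or adenosine, 9 had no read in any library and 4 were tested, 0 of which passed in either KO comparison (0 at an unadjusted p under 0.05 in TH2 cells and 2 in TH1 cells). Of all genes, 3.59% passed in TH2 cells and 0.844% in TH1 cells, and 19.1% and 10.1% had such an unadjusted p. The prostaglandin receptor Ptger4, also coupled to Gs, was at 101, 67.3 and 68.3 CPM in TH2 Itgav KO and 87.4, 85.6 and 71.3 CPM in TH2 control libraries, and at 184, 167 and 180 CPM in TH1 Itgav KO and 100, 101 and 134 CPM in TH1 control libraries (0.67 ± 0.19 in TH1 cells, limma, adjusted p = 0.12, and 0.0101 with only the libraries of the TH1 groups fitted). Its sister Ptger2 was 0.95 ± 0.31 higher in TH2 than in TH1 control cells on the log2 scale (adjusted p = 0.0378), a call lost in 7 of 19 alternatives, among them without TH2 control 1 or 3 or any 1 of the TH1 control libraries (adjusted p of 0.0793 to 0.129).

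Calcrl begins to be transcribed, on the minus strand, 701 kb from the start of Itgav, the gene removed, and the near end of the gene lies 606 kb from that start and 524 kb from the Itgav end. Between them lie Fam171b, below the level for testing at 0.826 to 6.13 CPM, and Zswim2, at 0 in all libraries. Fam171b was at 1.11, 4.10 and 0.826 CPM in TH2 Itgav KO libraries, against 6.05, 1.93 and 6.13 CPM in TH2 control libraries, with overlap. In TH1 cells it was at 4.10, 3.95 and 1.25 CPM in Itgav KO libraries, against 3.06, 1.80 and 3.17 CPM in control libraries, also with overlap. Tfpi, the next gene of the table beyond Calcrl, named after its values were seen, was below the level for testing, at 9.61, 10.7 and 17.4 CPM in TH2 Itgav KO libraries, against 1.91, 3.52 and 8.87 CPM in TH2 control libraries, where the groups did not overlap. Of all genes tested, 18.7% likewise had TH2 groups without overlap. In TH1 cells Tfpi was at 4.83, 5.27 and 2.77 CPM in Itgav KO libraries, against 7.90, 7.36 and 3.52 CPM in control libraries, with overlap. Of the 50 genes whose lower coordinate lies within 2 Mb of that of Itgav 11 reached the level for testing. Apart from Itgav and Calcrl, 0 of the other 9 passed for Itgav KO against control in TH2 or in TH1 cells, beside 3.59% and 0.844% of all genes. In the limma fit, the only test run on them, 0 had an unadjusted p under 0.05, where 19.1% of all genes in TH2 cells and 10.1% in TH1 cells had one. The differences of these 9 ran from -0.44 to 0.33 in TH2 cells, with a median of 0.01, and from -0.39 to 0.41 in TH1 cells, with a median of 0.03. Zc3h15, the tested gene nearest to Itgav, differed by -0.19 ± 0.17 in TH2 cells (adjusted p = 0.593) and 0.02 ± 0.17 in TH1 cells (adjusted p = 0.992). Of the 9, only Zc3h15 lies nearer to Itgav than Calcrl does. The others lie beyond Calcrl, at 945 to 1313 kb from the Itgav start, so the stretch between Itgav and Calcrl held no tested gene. Whether linkage to the floxed allele bears on Calcrl was not tested.

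**Figure D5:**
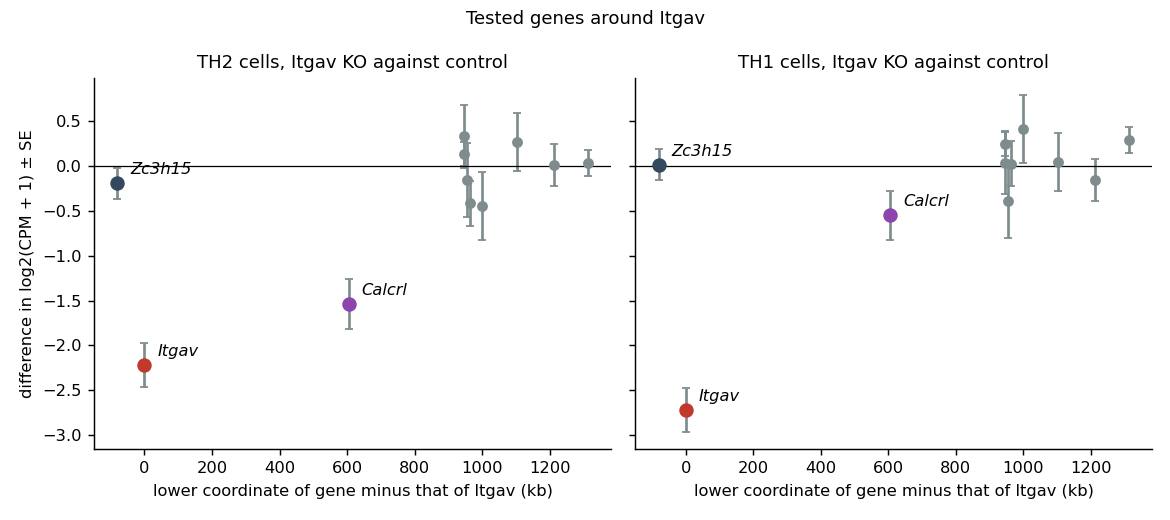
Difference in log2(CPM + 1) between Itgav KO and control libraries with SE bars (vertical axis) for the 11 tested genes within 2 Mb of Itgav, against the distance of their lower coordinate from that of Itgav in kb (horizontal axis), in TH2 cells (left) and TH1 cells (right). Itgav and, at 606 kb, Calcrl lay lowest in TH2 cells, while the other 9 genes lay between -0.44 and 0.33.

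Calcrl is also high in endothelial cells, so the markers of other cells were read beside it. Of 8 endothelial markers 2 reached 1 CPM in at least 3 libraries, Pecam1 and Kdr, and 4 were at 0 in all libraries, namely Cdh5, the defining cadherin of these cells, Emcn, Robo4 and Cldn5. Their summed level was 46.7 to 77.1 CPM in TH2 Itgav KO libraries, against 23.2 to 52.2 CPM in TH2 control libraries, and 14.6 to 31.9 CPM in TH1 Itgav KO libraries, against 4.76 to 8.03 CPM in TH1 control libraries. In TH2 libraries nearly all of this sum was Pecam1, which T cells can express. Kdr was at 0 in all TH2 libraries.

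Of 8 macrophage and dendritic cell markers 2 reached 1 CPM in at least 3 libraries, and their sum was 16.9 to 38.5 CPM in TH2 Itgav KO libraries, against 13.4 to 38.2 CPM in TH2 control libraries, and 6.83 to 13.9 CPM in TH1 Itgav KO libraries, against 6.17 to 12.4 CPM in TH1 control libraries. The 6 B cell markers summed to 9.15 to 12.4 CPM in TH2 Itgav KO libraries, against 4.54 to 7.12 CPM in TH2 control libraries, and to at most 5.18 CPM in TH1 libraries. The 7 mast cell and basophil markers were at 0 in all TH2 libraries and at most 1.85 CPM in TH1 libraries. The 8 stromal markers summed to 0.462 to 7.25 CPM in TH2 Itgav KO libraries, against 0.530 to 4.32 CPM in TH2 control libraries, and to 3.34 to 10.2 CPM in TH1 Itgav KO libraries, against 14.0 to 18.2 CPM in TH1 control libraries. The sums of endothelial and of stromal markers thus did not overlap between the TH1 groups, in which Ramp1 differed, the endothelial sum being higher and the stromal sum lower in Itgav KO libraries. Between the TH2 groups, in which Calcrl differed, the B cell sum did not overlap and was higher in Itgav KO libraries. The 6 NK and CD8 T cell markers summed to at most 19.3 CPM in any library. All 8 CD4 T cell markers were present, with sums of 6806 to 8139 CPM. The part of any of these signals in the member levels was not tested.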

How the data were processed

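Total RNA of sorted CD4+ T cells was amplified to cDNA with the Ovation RNA-seq System V2 and sequenced as single reads, in 12 libraries whose groups and replicate numbers come from the labels. The authors trimmed reads with Trim Galore 0.50, aligned them to GRCm38 with STAR 2.6.0a and tested them with DESeq2 1.18.1. The counter and its annotation are not named by the sources. The authors deposited each value as CPM, reads scaled to the library's reads in genes, plus 0.0001, and this offset was subtracted. The 12 columns of values used here carried the labels of their libraries. A second copy of the same values, with columns numbered over the series, was mapped to groups only. CPM is a share of a fixed total, so a rise of an abundant gene lowers the values of others. Low values were whole multiples of the value of 1 read in each library, within 0.1 reads, which gave the depths, and floors cover counting error only. Replicates differed beyond sampling noise (chi-square per degree of freedom of 18.5 to 76.3).

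The 9121 genes that reached 10 CPM in 3 or more libraries were fitted on log2(CPM + 1) by limma 3.58.1 in R 4.3.3, with a variance trend and a mean for each of the 4 groups over all libraries. Adding 1 understates differences of low genes. The limma tests were two-sided, with Benjamini-Hochberg adjustment over these genes and a threshold of 0.05. The members and the gene lists were chosen with earlier results of these data known, so members have no p-value. From each list the text names, in each KO comparison and in TH2 against TH1 control cells, up to 4 genes past the threshold with the largest difference, or the 2 highest where none passed, and the 5 genes with the highest Pearson r to each member. Lengths, positions and overlaps come from the GENCODE annotation of GRCm38. Alternatives were a pseudocount of 0.25, a minimum of 1 CPM or none, TMM scaling, a fit without the variance trend, a block for the replicate number, only the groups compared, Spearman's rho for likeness, and each library left out in turn.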

Additional observations from a re-analysis of the deposited data

Results flagged for a closer look

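Rgs2, which shortens signals of G protein-coupled receptors, was the only gene of the receptor, ligand and cAMP lists whose Itgav KO effect differed between the subsets in the limma fit. It was at 44.0, 64.0 and 91.3 CPM in TH2 Itgav KO libraries, against 15.8, 21.1 and 70.2 CPM in TH2 control libraries (log2 difference 1.12), and it fell by 1.81 in TH1 cells. The KO difference in TH2 minus that in TH1 was 2.93 (limma, adjusted p = 0.0214). The interaction missed the threshold in 5 of 18 alternatives, namely with no filter, with no variance trend, and without TH1 control 1, TH1 control 2 or TH1 Itgav KO 3, with adjusted p-values of 0.0578 to 0.205 and log2 differences of 2.88 to 2.93. The KO difference of Calcrl itself did not pass this test, at -0.99 ± 0.39 (SE).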

How the results depend on the processing

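Of the member differences, those of Calcrl were on the same side of the threshold in every alternative, and no called value changed sign. Leaving out each library in turn gave -1.63 to -1.39 for Calcrl in TH2 Itgav KO against control, and 1.38 to 1.91 for Ramp1 in TH1 Itgav KO against control. In TH1 Itgav KO against control the members called were 0 in place of 1 (Ramp1) with a minimum of 1 CPM, with no filter, with no variance trend and with a pseudocount of 0.25, and 0 to 1 over the libraries left out. Between the KO groups they were 1 in place of 2 with no filter, and 1 to 2 over the libraries left out. By Spearman's rho, 0 of the 5 genes most like Calcrl, 1 of 5 for Ramp1 and 1 of 5 for Ramp3 remained. Counts over all genes moved more. TH2 Itgav KO against control gave 327 genes, 141 with no filter, 76 with no variance trend, 125 with only the groups compared and 158 to 383 over the libraries left out, the lowest without TH2 control 2 (208 without TH2 Itgav KO 2 and 209 without TH2 Itgav KO 3). TH1 Itgav KO against control gave 77 genes, 29 with no variance trend, 367 with only the groups compared and 26 to 124 over the libraries left out (36 without TH1 control 1, 30 without TH1 control 2, 34 without TH1 Itgav KO 2, 26 without TH1 Itgav KO 3 and 124 without TH2 control 2). The KO difference in TH2 minus TH1 gave 37 genes, 2 with no filter, 1 with no variance trend, and 2 to 50 over the libraries left out, 9 of which took it to 20 or fewer. The causes were not tested. With the replicate number as a block this count was 17. Same-numbered libraries had residual correlations of -0.0657 to 0.0256 (18 pairs), within the -0.09 to 0.106 of the others. Whether libraries of the same number share a mouse is not given. These correlations cannot decide it, since a small shared effect could be hidden by the spread between replicates. The block changed 1 other named call, Ptger2 between control cells (adjusted p = 0.0533). TMM scaling moved the median of all genes by at most 0.04. The planned count tests, edgeR and DESeq2 on recovered reads, were left out: as deposited, with the offset, the columns do not step in whole reads, although they do within 0.1 reads once it is subtracted. Values near the floor of 0.225 to 0.473 CPM, such as Ramp2 and Calcb in TH2 cells, are limited by depth.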
